A study of Mus musculus with 3 samples.

Results

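Type 2 cytokines and their receptor chains were followed in single cells of mouse nasal mucosa through 7 genes: the cytokines Il4 (ENSMUSG00000000869), Il5 (ENSMUSG00000036117), Il13 (ENSMUSG00000020383) and Csf2 (ENSMUSG00000018916), and the receptor chains Il4ra (ENSMUSG00000030748), Il13ra1 (ENSMUSG00000017057) and Il5ra (ENSMUSG00000005364). They were taken by symbol from the 55357 genes of the deposited feature lists, and all 7 were found. C57BL/6 mice were given PBS in the nose (PBS group), or 20 µg of papain in the nose with PBS by gavage (papain group), or the same papain with lonidamine at 10 mg/kg by gavage (lonidamine group). Papain is a plant cysteine protease that elicits allergic inflammation, and lonidamine inhibits hexokinase and the transport of pyruvate and lactate. Per the series' design text, each group was made up of males and females in equal parts, and all mice of a group were pooled. The labels do not give the number of mice. Each group is therefore 1 library, no difference below has a replicate check, and none was tested.

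IL-4, IL-5 and IL-13 are the signature cytokines of type 2 immunity, made by group 2 innate lymphoid cells (ILC2), T helper 2 cells, basophils and mast cells. IL-4 signals through IL-4Rα paired with the common gamma chain or with IL-13Rα1, and IL-13 signals through IL-4Rα paired with IL-13Rα1. Both pairs act mainly through STAT6 and drive mucus production in epithelium and alternative activation in macrophages. IL-5 supports eosinophils through IL-5Rα and the common beta chain, and GM-CSF, the product of Csf2, uses the same beta chain with its own alpha chain.

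The 4 cytokine genes lie on chromosome 11, where Il4, Il13 and Il5 neighbour each other around Rad50 and Csf2 stands farther along next to Il3. The 250 bases before the start of each are printed here because the 4 genes share a locus while their ratios between libraries differed. The sequences are from RefSeq for build GRCm38.p6, an older build than the GRCm39 that the submitters' processing notes name, and are written 5′ to 3′ on the gene's strand. Capitals mark GATA motifs, that is GATA with A or T before it and A or G after it, on either strand.
Il4, chr11:53618666-53618915, minus strand: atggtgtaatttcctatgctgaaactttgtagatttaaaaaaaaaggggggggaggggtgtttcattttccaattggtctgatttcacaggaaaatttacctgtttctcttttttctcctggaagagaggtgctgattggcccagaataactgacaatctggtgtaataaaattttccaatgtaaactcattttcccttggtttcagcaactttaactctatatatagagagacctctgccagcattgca
Il13, chr11:53634703-53634952, minus strand: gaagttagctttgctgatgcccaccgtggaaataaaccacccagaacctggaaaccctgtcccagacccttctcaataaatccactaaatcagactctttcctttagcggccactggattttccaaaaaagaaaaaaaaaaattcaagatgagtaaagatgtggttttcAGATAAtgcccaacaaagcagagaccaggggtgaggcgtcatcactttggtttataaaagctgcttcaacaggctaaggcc
Il5, chr11:53720544-53720793, plus strand: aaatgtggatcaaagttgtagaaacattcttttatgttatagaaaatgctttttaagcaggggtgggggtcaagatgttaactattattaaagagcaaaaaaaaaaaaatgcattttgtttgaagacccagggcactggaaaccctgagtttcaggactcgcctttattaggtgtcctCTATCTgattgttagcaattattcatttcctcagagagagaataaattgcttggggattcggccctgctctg
Csf2, chr11:54249900-54250149, minus strand: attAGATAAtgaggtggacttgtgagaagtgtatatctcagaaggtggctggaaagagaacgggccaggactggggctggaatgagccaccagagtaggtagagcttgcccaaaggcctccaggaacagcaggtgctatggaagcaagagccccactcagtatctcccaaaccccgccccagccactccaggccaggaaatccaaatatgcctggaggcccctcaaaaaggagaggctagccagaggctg

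A GATA motif began 81 bases before the start of Il13, 72 before that of Il5 and 247 before that of Csf2. These letters did not occur in the Il4 window. RefSeq gave 2 starts for Il4, and only the window before the most upstream was read. No link between motifs and ratios was tested. GATA3 is the lineage factor of ILC2 and T helper 2 cells. Of 32851 RefSeq promoters of the same length, 26.5% hold such a motif, so a match is common. The Il4 window held a STAT6-type motif 167 bases before the start, found in 5.85% of promoters, and 4 NFAT-type motifs (GGAAAA, either strand), found at least once in 20.4%. The Il13 window also held an NFAT-type motif, 132 bases before the start, while those of Il5 and Csf2 held none. Neither Il4ra nor Il13ra1 held a match to any of these motifs or to an AP-1 motif (TGACTCA). Il5ra held a GATA motif 74 bases, an AP-1 motif 99 bases and an NFAT-type motif 8 bases before the start.

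After filters on depth and removal of called doublets, 9378 cells remained in the PBS library, 10524 in the papain library and 11887 in the lonidamine library, with a median of 7352.5, 6547 and 5823 unique molecular identifiers (UMIs, each a counted transcript molecule) per cell. Pairs of libraries shared 22 to 35 barcodes. Of the cells that could be told apart by Xist or Y-linked UMIs, 56.8% were Xist-only in PBS, 73.2% in papain and 83.1% in lonidamine, although the design is balanced by sex. Olfactory neurons and their progenitors made up 43.0% of PBS cells, 22.8% of papain cells and 20.4% of lonidamine cells. Both shifts move with the groups. Values within the sex classes and without neurons are given below, and the part of these shifts in other results was not tested. Intervals in square brackets are exact 95% intervals that cover counting error only and treat UMIs as independent, although a few cells can hold most UMIs of a cytokine. Levels are UMIs per 1000000 UMIs of the cells named (CPM), and a log2 ratio compares 2 CPM values. The reads are 3′ tags, so no length correction applies.

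Il13 was the member with the widest gap between PBS and papain. Its UMIs over all kept cells numbered 30 in PBS, 488 in papain and 454 in lonidamine, in 13, 66 and 104 cells. That is 0.375 [0.253, 0.536], 5.89 [5.37, 6.43] and 5.34 [4.86, 5.86] CPM, 15.7-fold higher in papain than in PBS (log2 ratio 3.97 [3.44, 4.55]). Both papain-treated libraries were far above PBS, and they differed from each other by less than counting error (log2 ratio, lonidamine over papain, -0.14 [-0.33, 0.05]). Il5 had 58, 427 and 341 UMIs in 12, 64 and 83 cells. Its log2 ratio was 2.83 [2.43, 3.25] for papain over PBS and -0.36 [-0.57, -0.15] for lonidamine over papain. Lonidamine thus stood between PBS and papain for Il5, with more positive cells than papain and fewer UMIs in each (4.11 against 6.67).

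Csf2 had 22, 143 and 115 UMIs in 20, 79 and 65 cells, a log2 ratio of 2.65 [1.99, 3.37] for papain over PBS and -0.35 [-0.72, 0.01] for lonidamine over papain. Il4 was the scarce cytokine, with 25, 40 and 56 UMIs in 16, 25 and 37 cells. Its log2 ratios of papain over PBS, 0.63 [-0.13, 1.41], and of lonidamine over papain, 0.45 [-0.16, 1.07], were within counting error, while lonidamine over PBS, at 1.08 [0.37, 1.82], was beyond it. Among the receptor chains, Il13ra1 had 2130, 4664 and 4798 UMIs, 26.6, 56.2 and 56.4 CPM, a log2 ratio of 1.08 [1.004, 1.15] for papain over PBS. Il4ra had 1620, 2329 and 2266 UMIs, 20.3, 28.1 and 26.7 CPM, a log2 ratio of 0.47 [0.38, 0.56]. Il5ra had 21, 19 and 9 UMIs, 1 in each positive cell.

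Of the 7 members, 4 (Il13, Il5, Csf2 and Il13ra1) were at least 2-fold higher in papain than in PBS and 0 were at least 2-fold lower. Of the 22862 genes with at least 20 UMIs in the 2 libraries, 10.2% were at least 2-fold higher and 5.92% at least 2-fold lower. In lonidamine against papain, 0 members were 2-fold higher and 1, Il5ra, was 2-fold lower, on 9 against 19 UMIs and with an interval that includes no difference (-1.11 [-2.44, 0.10]). The corresponding shares of 22947 genes were 2.9% and 2.08%. The median log2 ratio of the members was 1.08 for papain over PBS and -0.14 for lonidamine over papain, while that of all genes was -0.02 and 0.03.

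**Figure D1:**
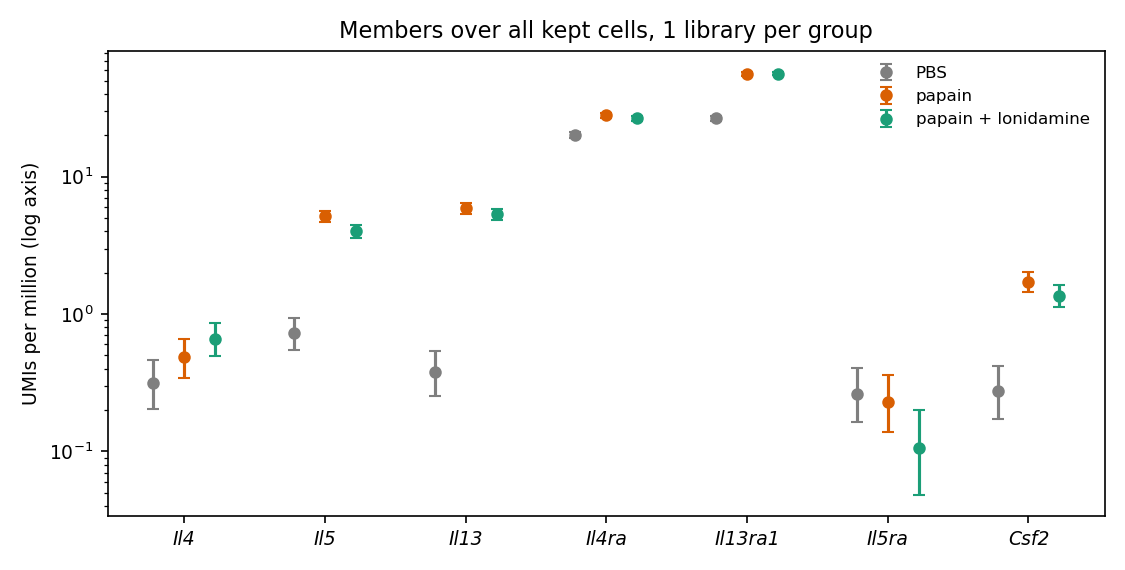
CPM (log axis) of the 7 members over all kept cells of the PBS, papain and lonidamine libraries, 1 library each. Points are levels and bars exact 95% counting intervals. Il13, Il5 and Csf2 separate PBS from both papain-treated libraries, Il13ra1 does so by about its 2-fold ratio, and the intervals of Il4 overlap from each library to the next.

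**Figure D2:**
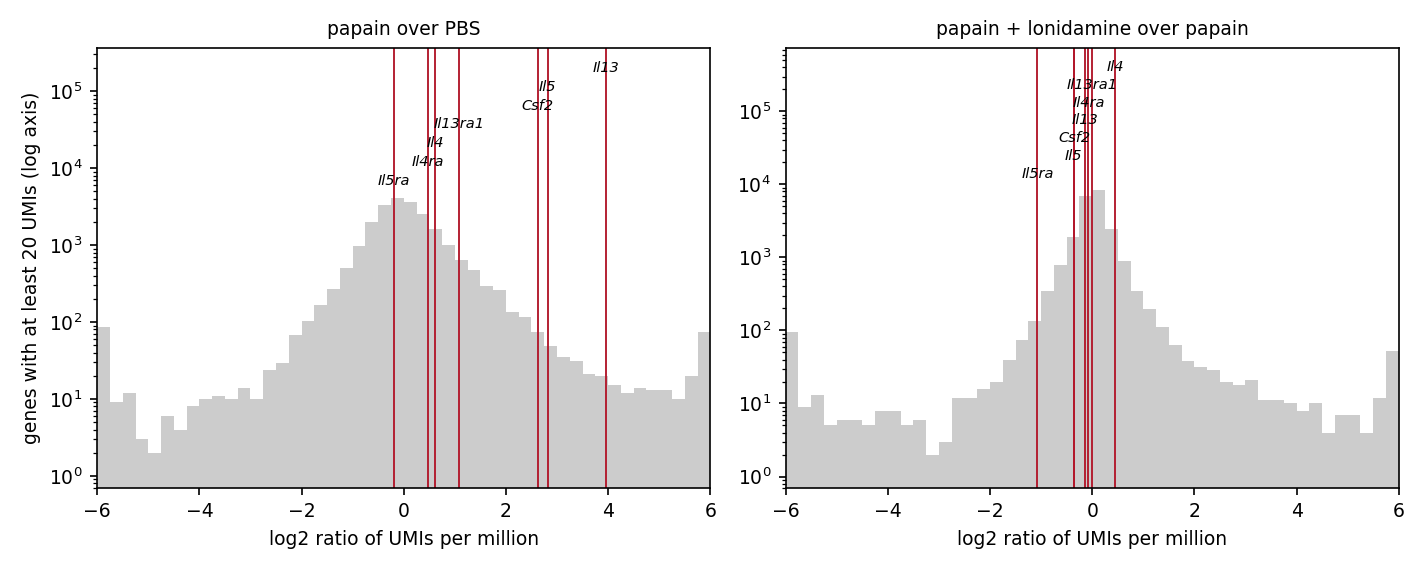
Log2 ratios of all genes with at least 20 UMIs (grey, number of genes on a log axis, the end bins gathering more extreme values) with the 7 members as red lines, for papain over PBS and for lonidamine over papain. 0.5 counts were added to each sum here. In the first panel Il13, Il5 and Csf2 lie in the upper tail, and in the second all but Il5ra lie between -0.36 and 0.44.

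Values within the sex classes and without neurons were computed for each member. In Xist-only cells the log2 ratio of papain over PBS was 4.28 for Il13, 2.13 for Il5, 3.06 for Csf2 and 1.27 for Il13ra1. In cells with Y-linked UMIs and no Xist it was 2.81 for Il13 (52 against 11 UMIs), 5.88 for Il5 (79 against 2), 1.85 for Csf2 (17 against 7) and 0.90 for Il13ra1. All 4 were thus higher in papain in either class of cells. Il4 differed in sign between them, 1.38 on 26 against 7 UMIs in Xist-only cells and -1.43 on 3 against 12 in Y-only cells. Without olfactory neurons and progenitors, the papain over PBS ratio was 0.76 for Il13ra1 and 0.16 for Il4ra, so that Il13ra1 was no longer 2-fold higher, while Il13 stayed at 3.56, Il5 at 2.50 and Csf2 at 2.17.

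To find which cells carried the members, each cell was gated by its markers into 1 of 27 classes, and left unassigned if it had fewer than 3 of a class's markers or no leading class. Classes are called "-like" for that reason. The ILC2-like gate used Gata3, Il1rl1, Klrg1, Hs3st1, Rora, Il7r, Areg, Icos, Il17rb and Arg1, none of them a member. It held 45 PBS cells, 111 papain cells and 185 lonidamine cells, that is 0.480% [0.350, 0.642], 1.05% [0.868, 1.27] and 1.56% [1.34, 1.80] of the library. The share was thus highest in lonidamine and lowest in PBS. Of these 341 cells, 46 had the minimum of 3 markers, and 41 further cells led for ILC2 with 1 marker too few. Il1rl1, the IL-33 receptor, was detected in 51.1%, 72.1% and 70.3% of them and in 0.571%, 7.21% and 11.98% of alpha beta T-like cells. Transcripts of Cd3d, Cd3e or Trac, which mark T cells, were present in 17, 33 and 52 of the gated cells, and values without those cells are given where they differ. Other T cell receptor complex genes were more frequent in the gate: Trbc2 was found in 64.4%, 64.9% and 61.1% of its cells, Trbc1 in 44.4%, 56.8% and 52.4%, and Cd3g in 42.2%, 42.3% and 33.0%. In alpha beta T-like cells Trbc2 was found in 92.9%, 87.8% and 87.8%. Cells with none of these 6 genes numbered 4, 8 and 20. In clusters formed without the members, 18, 68 and 110 of the gated cells lay in the cluster named ILC2-like, and most of the rest in clusters of T cells. Most gated cells of the ILC2-like cluster thus had at least 1 of the 6 genes. Having such a transcript therefore does not by itself place a gated cell outside that cluster.

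ILC2-like cells held most of the Il5 in each library, and most of the Il13 in papain and lonidamine. Il5 numbered 51, 402 and 298 UMIs there, in 5, 48 and 59 cells, which is 87.9%, 94.1% and 87.4% of all Il5 UMIs of the library. The level within the gate was 288, 716 and 384 CPM. In PBS, however, 2 cells held 26 and 22 of the 58 UMIs of the library, and the PBS level rests on them. In papain the top cell held 79 UMIs, or 18.5% of the total. The log2 ratio within the gate was 1.31 [0.89, 1.76] for papain over PBS and -0.90 [-1.12, -0.68] for lonidamine over papain. Without the cells that had Cd3d, Cd3e or Trac, these became 0.57 [0.14, 1.03] and -0.64 [-0.89, -0.40], and Il5 was then not 2-fold higher in papain. The 4, 8 and 20 cells with none of the 6 T cell receptor complex genes held 27, 9 and 21 Il5 UMIs. Of the PBS ones, 26 were in 1 cell, so that the order of the libraries was different there (1321, 155 and 233 CPM). These few cells leave out most of the ILC2-like cluster.

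Il13 numbered 14, 391 and 299 UMIs in ILC2-like cells, in 6, 42 and 68 of them, and 46.7%, 80.1% and 65.9% of the library's Il13 UMIs lay in this gate. The level was 79.2, 697 and 385 CPM, a log2 ratio of 3.14 [2.37, 4.02] for papain over PBS and -0.86 [-1.08, -0.63] for lonidamine over papain. The share of gated cells with Il13 was 13.3% [5.05, 26.8], 37.8% [28.8, 47.5] and 36.8% [29.8, 44.1]. The intervals of papain and lonidamine overlapped, and positive cells of lonidamine held fewer UMIs, with a median of 2 per positive cell against 6 in papain. ILC2-like cells of lonidamine were also shallower, with a median of 3009 UMIs against 3780 in papain and 3419 in PBS. Thinned to 2000 UMIs, which left 40, 97 and 150 cells, the shares were 12.5%, 39.2% and 27.3% for Il13 and 12.5%, 35.1% and 27.3% for Il5. In mature olfactory neuron-like cells, which should lack Il13 and have 6588.5 to 7492.5 median UMIs, 0 of 2814, 0 of 1319 and 1 of 1430 cells had an Il13 UMI. By the floor of 3 counts, 0 cells allow a share of cells with a UMI of up to 0.107% and 0.227%, and the exact upper limits are 0.131% and 0.279%.

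Il4 and Csf2 were less tied to this gate. Il4 had 1, 19 and 18 UMIs in 1, 13 and 15 ILC2-like cells. In PBS, 5 of its 25 UMIs were in 1 endothelial-like barcode and 6 in 6 of 2814 mature olfactory neuron-like cells. In papain, 9 of its 40 were in 3 basal epithelial-like cells. Csf2 had 0, 49 and 56 UMIs in 0, 18 and 18 ILC2-like cells. Set against the floor of 3 UMIs in PBS, it was 5.15-fold higher in papain there, and the exact lower limit was 4.03-fold. Csf2 was also found in epithelial cells. Basal epithelial-like cells held 0, 29 and 17 of its UMIs (0, 1.78 and 1.05 CPM). By the same floor this was 5.76-fold higher in papain than in PBS, with an exact lower limit of 4.39-fold. Sustentacular-like cells, the supporting cells of olfactory epithelium, held 9, 20 and 11 (1.97, 2.12 and 0.969 CPM). The basal class was also larger, with 936 cells in PBS, 1777 in papain and 1974 in lonidamine.

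**Figure D3:**
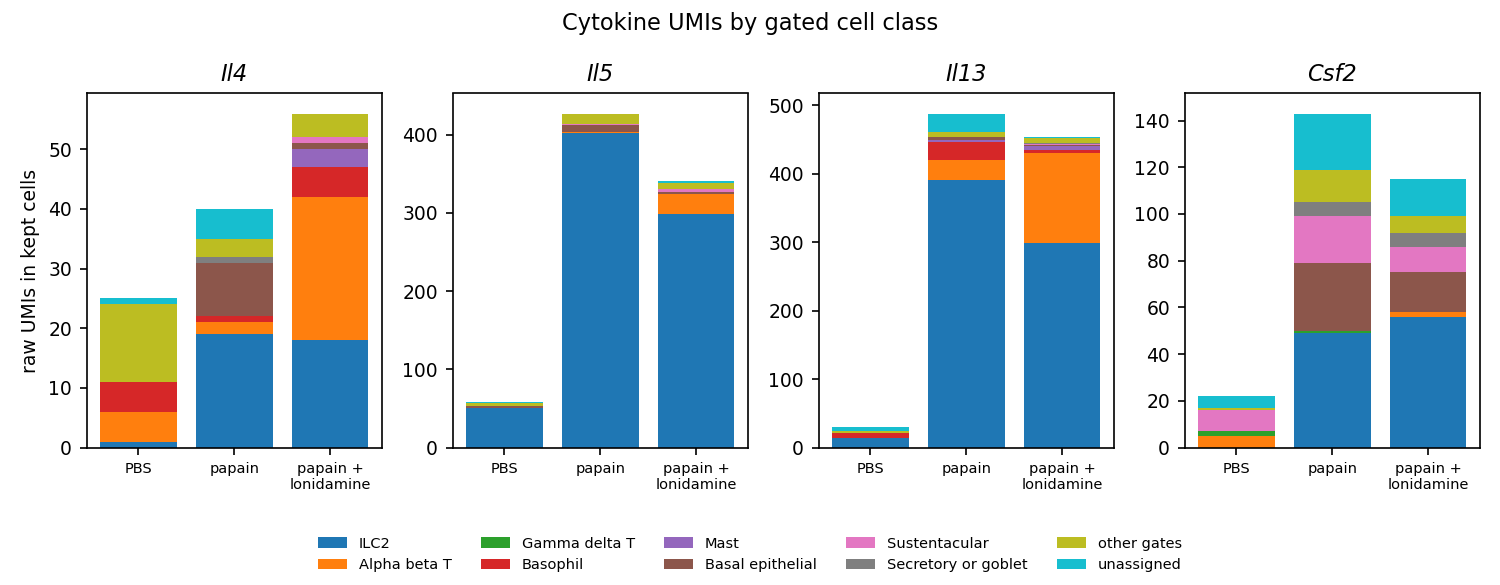
Raw UMIs of Il4, Il5, Il13 and Csf2 in kept cells of each library, stacked by gated cell class. Each panel has its own axis starting at 0. Blue, the ILC2-like class, fills most of the Il5 and Il13 bars of papain (402 of 427 and 391 of 488), and orange, the alpha beta T-like class, takes 132 of 454 Il13 UMIs in the lonidamine library.

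Alpha beta T-like cells held the next largest number of Il13 UMIs in lonidamine. In papain their 29 UMIs stood beside 27 in basophil-like and 27 in unassigned cells, and in PBS they held 0 against 8 and 6. The class held 350, 402 and 384 cells, and its make-up differed between libraries. In clusters formed without the members, 203, 289 and 290 of these cells lay in the cluster named alpha beta T-like. Another 122, 90 and 76 lay in the cluster named gamma delta T-like. Trdc, a gamma delta T cell receptor gene, was found in 25.7%, 6.97% and 8.07% of the class. The part of this shift in the ratios was not tested. Il13 had 0, 29 and 132 UMIs in 0, 6 and 19 cells of the class, and the level was 0, 18.8 and 96.1 CPM. The log2 ratio of lonidamine over papain was 2.36 [1.77, 2.99], opposite in sign to that of ILC2-like cells. It was 2.999 without the top cell of each library, which held 15 and 33 UMIs, and 2.36 in Xist-only cells (125 against 24 UMIs). In clusters formed without the members it was 1.72. Il5 had 0, 2 and 26 UMIs in 0, 2 and 8 T-like cells, with 15 of the 26 in 1 cell, and Il4 had 5, 2 and 24 UMIs in 2, 1 and 12 cells. The 3 cytokines were therefore all more abundant in lonidamine than in papain in this class, each on few cells. ILC2-like cells with Cd3d, Cd3e or Trac, which also carry T cell transcripts, went the other way for Il5 and Il13. In lonidamine against papain they held 16 against 117 Il5 UMIs (-2.78 [-3.63, -2.02]) and 23 against 95 Il13 UMIs (-1.95 [-2.68, -1.28]). Which of the 2 classes these cells belong to was not tested. T-like cells with a UMI of Gata3, of which there were 71, 103 and 125, held 0 of 0, 28 of 29 and 116 of 132 Il13 UMIs. Gata3 itself was found in 20.3%, 25.6% and 32.6% of T-like cells.

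Basophil-like cells were few, 13, 8 and 6, but dense in Il13. It had 8, 27 and 4 UMIs there, in 3, 3 and 1 cells, and Il4 had 5, 1 and 5. UMIs of the basophil proteases were scarce in the papain cells of this gate. Mcpt8 had 562, 9 and 265 UMIs, in 7, 6 and 4 cells, and Prss34 had 945, 0 and 329, in 2, 0 and 2. Of the other gate markers, Cd200r3 was found in 10, 7 and 5 cells and Ms4a2 in 10, 6 and 5. Gata2 was found in 13, 6 and 5, and Fcer1a in 11, 4 and 5. The proteases thus give the class name less support in papain, where it rests more on the other markers. Mast-like cells numbered 1, 6 and 5, with 0, 3 and 5 Il13 UMIs. No cell passed the gate of eosinophils, the main target of IL-5, in any library, which by the floor of 3 counts allows a share of up to 0.0320%, 0.0285% and 0.0252% (exact upper limits 0.0393%, 0.0350% and 0.0310%). The eosinophil peroxidase gene Epx had 8, 2 and 1 UMIs over all kept cells, and the granule protein gene Prg2 had 83, 33 and 29. The 8 markers of the gate together had 539, 818 and 1033 UMIs, most of them from Siglecf (216, 460 and 353) and Ear2 (219, 304 and 618), so the list as a whole was lowest in PBS.

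Il5 and Il13 were often present in the same ILC2-like cell. In PBS, 5 cells had Il5, 6 had Il13 and 0 of 45 had both. In papain, 30 of 111 cells had both, where the product of the 2 shares gives 18.2. In lonidamine 39 of 185 had both, where the product gives 21.7. Cells with both held 78.4% of the Il5 UMIs and 85.4% of the Il13 UMIs of papain ILC2-like cells, and 70.8% and 69.9% of those of lonidamine. Deeper cells have more of every gene, so a count above the product is a description. The highest counts were in few cells: 15 papain cells and 9 lonidamine cells had at least 10 Il13 UMIs. The papain cells with the most Il13 (60, 39 and 33 UMIs) had 1 Il5 UMI each, and the cell with the most Il5 had 10 Il13 UMIs.

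Il4 followed Il13 in lonidamine. Of its 15 Il4-positive ILC2-like cells, 14 also had Il13 (product of shares 5.51), whereas in papain 8 of 13 did (4.92). Il4 met Il5 in 10 of 13 papain cells (5.62). Csf2 was joined by Il5 in 13 of 18 papain cells (7.78) and by Il13 in 13 of 18 lonidamine cells (6.62). At least 1 of the 4 cytokines was detected in 24.4%, 58.6% and 49.2% of ILC2-like cells. At least 3 were detected in 0, 14 and 15 cells, among them 3 papain cells and 1 lonidamine cell with all 4. In T-like cells of lonidamine, 8 of 12 Il4-positive cells also had Il13, and 4 of 8 Il5-positive cells did.

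**Figure D4:**
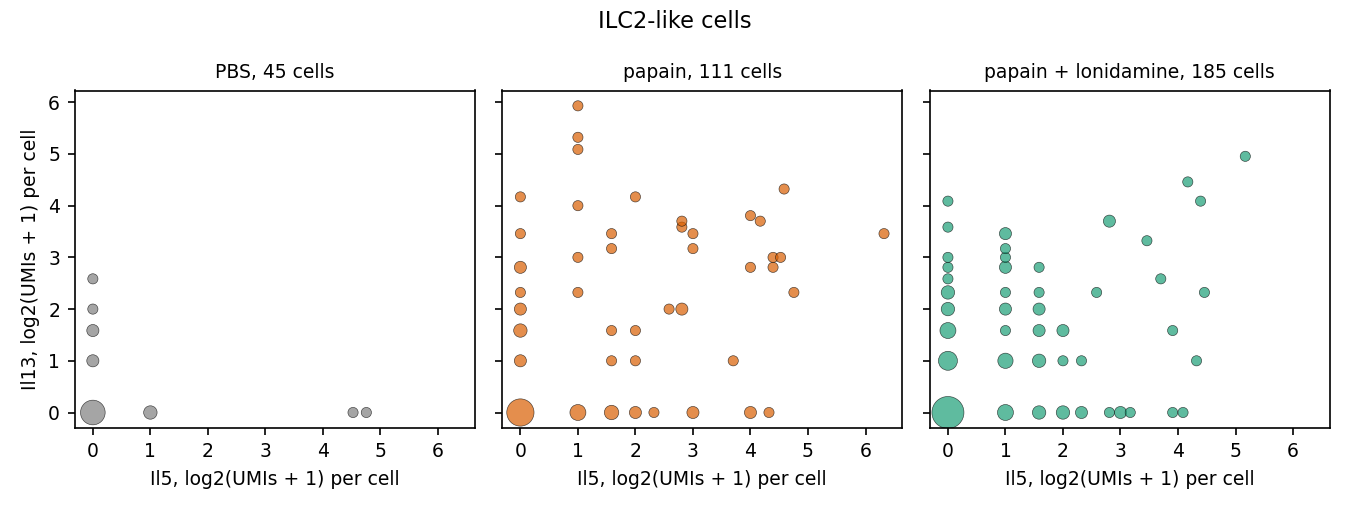
Il5 against Il13 as log2(UMIs + 1) in each ILC2-like cell of the PBS (45), papain (111) and lonidamine (185) libraries. Dot size grows with the number of cells at that point. No PBS cell lies off the axes, 30 papain cells and 39 lonidamine cells do, and the highest Il13 values of papain lie at 1 Il5 UMI.

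Il4ra, the chain shared by the IL-4 and IL-13 receptors, was highest in immune cells. Over the 3 libraries its highest level among classes with at least 50 cells was in neutrophil-like cells (201 CPM [187, 217]), followed by macrophage-like cells (110 [102, 119]) and ILC2-like cells (108 [91.8, 126]), which did not differ beyond counting error. Dendritic-like cells (90.2 [77.2, 105]), NK-like cells (86.2 [63.8, 114]), alpha beta T-like cells (78.4 [70.1, 87.4]) and monocyte-like cells (76.0 [67.8, 84.9]) came next, each overlapping its neighbour. These levels pool libraries that differ, and in papain monocyte-like cells came second, above macrophage-like cells (111) and ILC2-like cells. In neutrophil-like cells the level was 206 in PBS, 252 in papain and 158 in lonidamine, a log2 ratio of -0.67 [-0.92, -0.42] for lonidamine over papain. In monocyte-like cells it was 78.4, 144 and 47.7, with ratios of 0.88 [0.44, 1.31] for papain over PBS and -1.60 [-2.15, -1.05] for lonidamine over papain. Lonidamine was thus the lowest library in both classes, whose make-up differed between libraries. One neutrophil cluster held 9, 16 and 179 of the neutrophil-like cells, and 1, 2 and 66 of the monocyte-like cells. In the main neutrophil cluster, with 191, 594 and 552 of the gated cells, Il4ra was at 253, 294 and 279 CPM, and lonidamine over papain was -0.08 [-0.34, 0.19], within counting error. In the main monocyte cluster, with 346, 67 and 116 of the gated cells, it was -0.81 [-1.48, -0.14].

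Sustentacular-like cells had 14.3, 33.5 and 27.2 CPM of Il4ra, with a ratio of 1.23 [0.84, 1.64] for papain over PBS, and 0.84 [0.19, 1.56] within their largest cluster. Endothelial-like cells had 22.8, 48.6 and 47.0, with a ratio of 1.09 [0.65, 1.55], and dendritic-like cells 47.5, 109 and 108, with a ratio of 1.19 [0.51, 1.91]. In these 3 classes both papain-treated libraries were above PBS. Basal epithelial-like cells, at 18.5, 17.8 and 14.6 CPM, and ILC2-like cells, at 113, 98.02 and 113, had papain over PBS ratios within counting error (-0.05 [-0.33, 0.22] and -0.21 [-0.97, 0.61]). Mature olfactory neuron-like cells stood at 6.64, 7.14 and 8.34 CPM.

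Il13ra1 was an epithelial and stromal gene as much as an immune one. Tuft-like cells, chemosensory epithelial cells known as a source of IL-25, had the highest level over the 3 libraries (270 CPM [242, 301]) and 73.5% of them had a UMI. Neutrophil-like cells followed (106 [94.9, 117]), then sustentacular-like (79.1 [75.7, 82.6]), secretory-like (77.0 [72.5, 81.7]) and basal epithelial-like cells (74.6 [72.0, 77.2]), the last 3 overlapping each neighbour. In lonidamine alone, neutrophil-like cells, at 79.8, were not above sustentacular-like (86.0) or secretory-like cells (80.0). Alpha beta T-like (6.53 [4.31, 9.51]) and ILC2-like cells (9.25 [5.05, 15.5]) were near the level of mature olfactory neuron-like cells (4.73 [4.10, 5.44]). In papain, 38 of 111 ILC2-like cells had Il4ra and 4 had Il13ra1, so few of the main cytokine-positive cells had a transcript of the second chain.

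The papain over PBS difference of Il13ra1 was found in some structural classes and not in others. Fibroblast-like cells had 28.5, 62.3 and 60.0 CPM (papain over PBS 1.13 [0.58, 1.73]), and sustentacular-like cells 42.8, 88.4 and 86.0 (1.05 [0.82, 1.28]). Basal epithelial-like cells had 51.5, 86.3 and 76.6 (0.75 [0.60, 0.90]), and secretory-like cells 53.7, 81.9 and 80.0 (0.61 [0.31, 0.92]). In each of the 4 classes papain and lonidamine were above PBS. Their clusters also shifted: the largest sustentacular cluster held 47, 390 and 541 of the gated cells, and basal cells moved from 1 cluster (474, 289 and 277) to another (189, 746 and 909). Within the largest cluster of each class the papain over PBS ratio was 1.21 [0.62, 1.86] for fibroblast-like, 0.71 [0.33, 1.12] for sustentacular-like, 0.93 [0.66, 1.22] for basal epithelial-like and 0.29 [-0.12, 0.73] for secretory-like cells, the last within counting error. In tuft-like cells, at 220, 248 and 316 CPM, the papain over PBS ratio was within counting error (0.17 [-0.33, 0.71]). So it was in pericyte-like (0.10 [-0.48, 0.69]), multiciliated-like (-0.38 [-1.20, 0.41]), ionocyte-like (0.26 [-0.06, 0.57]) and ensheathing glia-like cells (-1.18 [-2.87, 0.72]). Endothelial-like cells stood at 0.38 [0.05, 0.71]. Neutrophil-like cells again had the lowest level in lonidamine (120, 131 and 79.8), with a lonidamine over papain ratio of -0.71 [-1.06, -0.36], and so did monocyte-like cells (64.8, 88.0 and 36.0; -1.29 [-1.96, -0.61]). Within the main neutrophil and monocyte clusters these ratios were -0.15 [-0.53, 0.22] and -0.81 [-1.55, -0.07].

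Both chains of the IL-13 receptor were detected in 351 PBS cells, 682 papain cells and 617 lonidamine cells, where the products of the shares give 181, 460 and 438. Within sustentacular-like cells 32 of 319, 165 of 733 and 166 of 972 had both (products 19.1, 126 and 138). Within basal epithelial-like cells 64 of 936, 146 of 1777 and 96 of 1974 had both (49.0, 117 and 86.0). Macrophage-like cells with both numbered 37 of 332, 36 of 366 and 26 of 375.

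Il5ra, the eosinophil and B cell chain of the IL-5 receptor, was at the limit of detection. Mature olfactory neuron-like cells held 11, 12 and 6 of its 21, 19 and 9 UMIs and immature ones 8, 4 and 1, and B-like cells held 1, 1 and 2. B-like cells numbered 48, 84 and 117. Most Il5ra UMIs thus lay in neurons, at 0.514, 1.14 and 0.618 CPM in mature ones. B-like cells had higher levels, 8.26 [0.209, 46.0], 3.19 [0.0808, 17.8] and 7.72 [0.935, 27.9] CPM, on 4 UMIs in all. Whether these UMIs are free RNA was not tested.

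**Figure D5:**
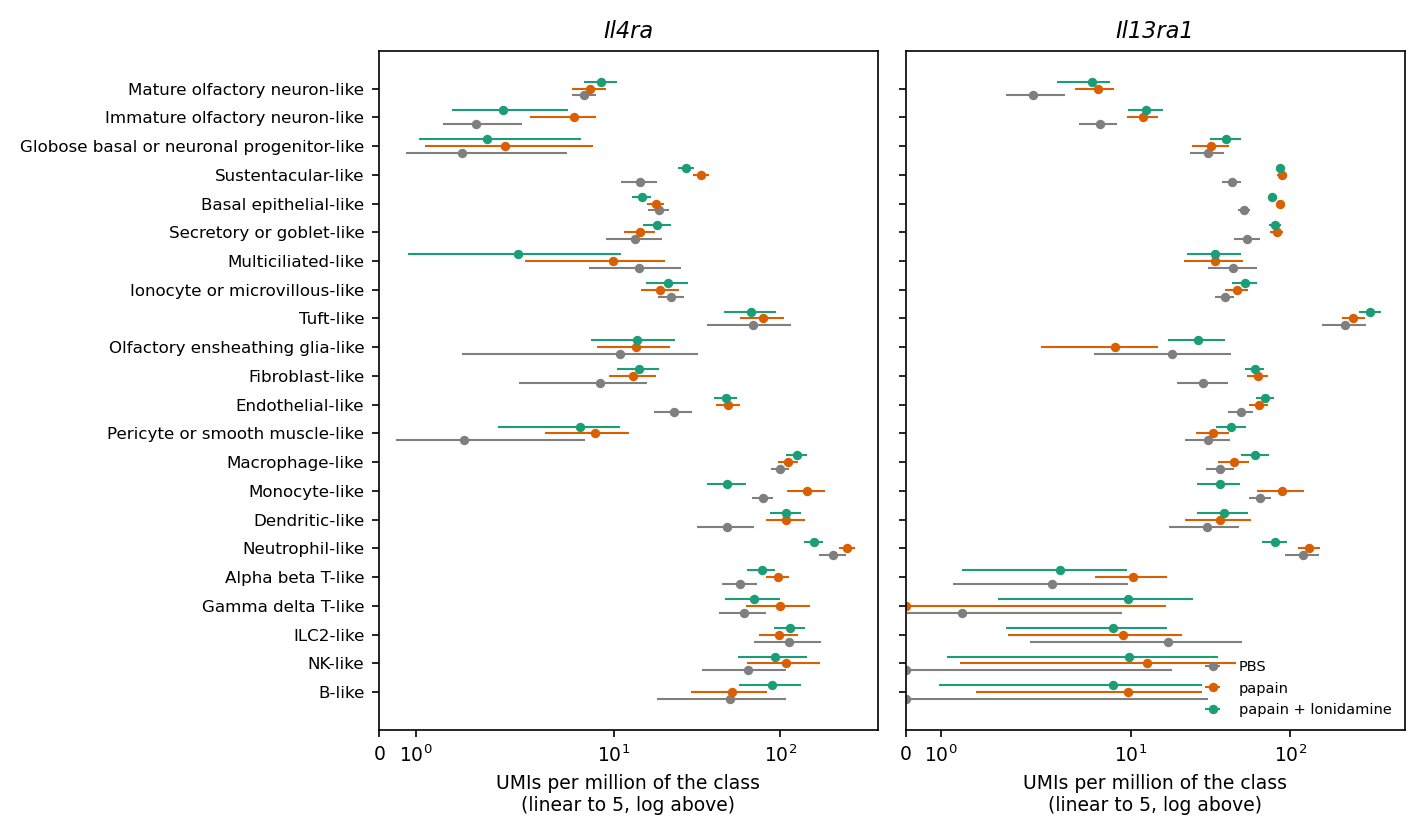
Il4ra and Il13ra1 in CPM for 22 classes (30 or more cells in each library), for PBS, papain and lonidamine, with exact 95% counting intervals. The axis is linear to 5 and logarithmic above. Neutrophil-like cells lead for Il4ra and tuft-like cells for Il13ra1 (220, 248 and 316), and monocyte-like and neutrophil-like cells of lonidamine lie below those of papain in both panels, with a different make-up of clusters in lonidamine.

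The rest of the pathway was read from 8 gene lists over all kept cells, to be set against the 10.2% of all genes that were at least 2-fold higher in papain than in PBS and the 5.92% that were lower. Of 9 partner and decoy chains, 2 were at least 2-fold higher in papain than in PBS and 0 lower, with a median log2 ratio of -0.04 (-0.02 over all genes). These were the IL-13 decoy receptor Il13ra2 (18, 73 and 90 UMIs; 1.94 [1.21, 2.80]) and Il9r (17, 57 and 81; 1.66 [0.89, 2.57]). The common gamma chain Il2rg stood at 16.3, 14.1 and 14.8 CPM and the common beta chain Csf2rb at 45.4, 44.1 and 41.6. Of 8 kinases and STATs, 1 was higher and 0 lower (median 0.50): Jak2, at 34.9, 88.3 and 79.9 CPM. Stat6 was at 21.3, 22.8 and 26.0. Of 6 feedback regulators, 1 was higher and 0 lower (median 0.14): Cish, a STAT5 target that damps cytokine signalling, at 22.1, 53.9 and 63.6 CPM. With 1 or 2 genes in each of these 3 lists, the counts were not far from those shares.

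Of 12 producer-cell regulators and alarmin receptors, 2 were higher and 0 lower (median 0.40), beside 10.2% and 5.92% of all genes. They were Il1rl1 (1.18, 10.9 and 13.8 CPM; 3.20 [2.90, 3.53]) and Gata3 (3.46, 11.4 and 14.6; 1.72 [1.53, 1.92]). Both were also markers of the ILC2-like gate. Of the 3 alarmins, epithelial cytokines that activate ILC2, Il33 was higher (12.1, 67.3 and 86.5 CPM), Tslp was higher (0.825, 2.16 and 2.16) and Il25 was lower (10.2, 4.82 and 3.56). Il33 in sustentacular-like cells was at 77.2, 263 and 328 CPM. Of 8 other cytokines, 4 had at least 20 UMIs. Of these, 3 (Il10, Il6 and Areg) were higher in papain (2.68, 2.08 and 1.62) and 0 lower, beside 10.2% and 5.92% of all genes. Areg is also a marker of the ILC2-like gate, whose cells held 259 of 1382, 1760 of 4408 and 1402 of 3750 of its UMIs.

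The targets of IL-4 and IL-13 in epithelium showed the widest differences. Of 14 tested, 13 were at least 2-fold higher in papain than in PBS and 1 was lower, with a median of 3.58. Of all genes, 10.2% were higher and 5.92% lower. The list was chosen with earlier results of these data known, so its count is a description. The ratios are over all kept cells, of which secretory-like cells made up 0.992%, 3.72% and 3.17%. The airway mucin Muc5ac had 106, 12290 and 11566 UMIs (6.80 [6.53, 7.09]), and 11539 of the papain UMIs were in 391 secretory-like cells. Muc5ac is itself a marker of the secretory-like gate, as are Agr2, Spdef and Fcgbp of this list, so its place in that class follows in part from the gating. The goblet cell protein Clca1 had 0, 1223 and 752. The chitinase-like Chil4 had 2125, 445278 and 237590 UMIs (7.66 [7.60, 7.72]), and it was also detected in 49.3% of alpha beta T-like cells of papain. The anion exchanger Slc26a4 was the lower one (134, 63 and 162 UMIs). In lonidamine against papain, 1 of the 14 was 2-fold higher, Slc26a4 (1.32), and 0 lower, with a median of 0.00. Of all genes, 2.9% were 2-fold higher and 2.08% lower in this comparison. Chil4 (-0.94) and Clca1 (-0.74) had the lowest ratios of the list.

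Of 12 targets in macrophages and B cells, 3 were higher in papain than in PBS (Retnla, Ccl24 and Arg1) and 1 was lower (Cd209a), with a median of 0.46, beside 10.2% and 5.92% of all genes. Arg1 is also a marker of the ILC2-like gate, whose cells held 31 of 148, 195 of 473 and 273 of 495 of its UMIs. Its ratio over all kept cells is therefore not a value of macrophages alone. In lonidamine against papain 2 were higher and 0 lower, with a median of 0.41, beside 2.9% and 2.08% of all genes. They were Retnla, a marker of alternative activation (57, 885 and 2033 UMIs; 1.16), and the chitinase-like Chil3 (3232, 2013 and 8278; 2.004). Retnla in macrophage-like cells was at 21.1, 317 and 853 CPM. Chil3 in that class was at 23.0, 169 and 164, and in neutrophil-like cells at 120, 97.9 and 1469. Of the neutrophil-like cells, the 9, 16 and 179 in the smaller cluster were at 724, 2030.3 and 3816 CPM of Chil3 and those in the main cluster at 82.0, 14.3 and 24.6, so that the class level moved with the number of cells in the smaller cluster.

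Across the 22 classes with at least 50 cells over all libraries, the genes whose log2(CPM + 1) was most like that of the members were sought among all genes with at least 100 UMIs, as a description over classes of 1 set of libraries. Basophil-like (27) and mast-like cells (12) were too few to enter, although Il4 stood at 113 and 44.7 CPM in them and Il13 at 401 and 119. Ccl1, a chemokine, came first for Il4 (Pearson's r = 0.90), Il5 (0.94), Il13 (0.91) and Csf2 (0.89). Next for Il5 came Cpa3 (0.92), a mast cell protease used as a gate marker, and for Il13 came Foxp3 (0.90), Il2 (0.89) and Il1rl1 (0.89). Most of the 596 Cpa3 UMIs lay in the 2 classes left out. Basophil-like cells held 99, 3 and 137 of them and mast-like cells 1, 100 and 167, while Il5 had 0 UMIs in both. The likeness of Cpa3 to Il5 therefore holds for the 22 classes only. For Csf2 the second was Calca (0.87), which encodes the neuropeptide CGRP. Il4ra was most like Ostf1 (0.92), Ptpn18 (0.91) and Rhog (0.91), and Il13ra1 most like Ltbr (0.84). At the cytokine locus, papain over PBS was 0.05 for Rad50, which lies between Il13 and Il5, -0.98 for Kif3a on the far side of Il4 and 1.24 for Irf1 next to Il5. Il3, beside Csf2, had 0, 1 and 0 UMIs.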

How the data were processed

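Tissue of each group was digested and captured with 10x Genomics 3′ chemistry, per the labels' protocols. The values are raw UMI counts per gene and barcode, deposited by the authors without normalization. Cell Ranger made them: the file headers give version 7.1.0, while the submitters' processing notes give 2.1.1 with build GRCm39. Fibroblast is the library name given for the papain library, which was used under its treatment label.

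The filter of 500 UMIs, 200 genes and no more than 20% mitochondrial UMIs left 9515, 10712 and 12149 barcodes. Scrublet in scanpy 1.11.5 marked 137, 188 and 262 of them as doublets, which were removed. No source used here says whether the authors had removed any. A gate marker counted in a cell when its share of the cell's UMIs exceeded its share of all kept UMIs, and 2 marker symbols and 1 list symbol were not among the deposited symbols. Ratios used the kept UMIs of each library (79971740, 82918339 and 84998730). Intervals are exact Poisson for sums, Clopper-Pearson for shares and conditional binomial for ratios of 2 counts. Ratios across all genes and of the pathway lists had 0.5 counts added, and the script was tested on simulated data. A zero was set to a floor of 3 counts per library for folds against a zero.

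The text names the 7 members, genes of the pathway lists and the 5 genes most like each member with at least 100 UMIs. Members and lists were chosen with earlier results of these data known. Alternatives were other filters, gates, clusters, totals, UMI minima and a median-of-ratios size factor. Ratios within clusters and without 6 T cell receptor complex genes were added after seeing the data.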

Additional observations from a re-analysis of the deposited data

Results flagged for a closer look

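Some members had lonidamine over papain ratios of opposite sign in 2 cell classes, with counting intervals on either side of 0 and at least 20 UMIs in each class. With 1 library per group the difference between classes was not tested. For Il13 the log2 ratio was 2.36 in alpha beta T-like cells and -0.86 in ILC2-like cells. The make-up of the T-like class by cluster also differed between libraries, and its part was not tested. Il13 in basophil-like cells was at -3.52, on 4 against 27 UMIs in 6 and 8 cells, again opposite to the 2.36 of T-like cells. The papain cells of that gate had 0 UMIs of the basophil protease Prss34. For Il5 the ratio was 3.87 in alpha beta T-like cells, on 26 against 2 UMIs, and -0.90 in ILC2-like cells. ILC2-like cells with Cd3d, Cd3e or Trac, which also carry T cell transcripts, were at -1.95 for Il13 and -2.78 for Il5. The sign in cells with T cell transcripts thus differed with the gate that held them. For Il13ra1 it was 1.72 in cells gated as olfactory ensheathing glia, on 25 against 10 UMIs, and -1.29 in monocyte-like and -0.71 in neutrophil-like cells. Within the main monocyte and neutrophil clusters, formed without the members, the latter were -0.81 and -0.15. Of the 327 glia-like cells, 111 had the minimum of 3 markers.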

How the results depend on the processing

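With 1 library per group, no spread between mice or preparations is known, and few cells carry each cytokine, so depth limits Il4, Il5ra and all cytokine values by class. No paired analysis was possible because each group has 1 library and no result comes from a test. Leaving out a replicate was likewise not possible.

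All deposited barcodes, the stricter filter, keeping doublets, totals without mitochondrial, ribosomal RNA and haemoglobin genes, and the stricter gate moved no value beyond its counting interval. The results that left their interval follow, as log2 ratios unless said. Per kept cell, papain over PBS was 0.36 for Il4ra and 0.96 for Il13ra1, and lonidamine over papain was -0.22 and -0.13. Without olfactory neurons and progenitors, papain over PBS was 0.16 for Il4ra and 0.76 for Il13ra1. In Xist-only cells papain over PBS was 2.13 for Il5, 0.65 for Il4ra, 1.27 for Il13ra1 and 0.95 for Il5ra. In Y-only cells it was -1.43 for Il4, 5.88 for Il5, 2.81 for Il13, 0.27 for Il4ra, 0.90 for Il13ra1 and 1.85 for Csf2, and lonidamine over papain was -1.002 for Il4, -2.26 for Il5, -0.95 for Il13, -0.21 for Il13ra1 and 0.40 for Csf2. In Y-only ILC2-like cells Il5 was at -2.65.

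Thinning to 2000 UMIs gave Il4 in 4.12% of papain and 2.67% of lonidamine ILC2-like cells, and Il13 in 27.3% of lonidamine cells. The cluster named ILC2-like from the same markers, formed without the members, was smaller (18, 71 and 111 cells) and richer: Il5 was in 27.8%, 64.8% and 50.5% of its cells and Il13 in 33.3%, 53.5% and 59.5%. In papain and lonidamine Il4 was in 19.7% and 13.5% of them, Csf2 in 25.4% and 15.3%, and Il5 with Il13 in 38.0% and 33.3%. This cluster held 73.2% of papain Il13 UMIs. In T-like clusters lonidamine over papain was 1.72 for Il13 and 1.69 for Il5.

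Choices added after seeing the data gave the following. Without the top cell of each library Il5 was at 3.39 for papain over PBS, Il13 in T-like cells at 2.999 for lonidamine over papain, and Il4 of PBS had 0% of its UMIs in ILC2-like cells. ILC2-like cells without Cd3d, Cd3e or Trac held 66.7% of Il5 and 60.7% of Il13 UMIs in papain, and 82.7% and 60.8% in lonidamine. In lonidamine 42.9% of these cells had Il5, 48.1% had Il13 and 28.6% had both, and Il5 was at -0.64 for lonidamine over papain. In the 8 papain and 20 lonidamine cells without Cd3d, Cd3e, Cd3g, Trac, Trbc1 or Trbc2, lonidamine over papain was 0.59 for Il5, opposite in sign to the -0.90 of the gate, on 21 against 9 UMIs, and -1.36 for Il13, on 12 against 20. Within the largest cluster of a class, the Il4ra and Il13ra1 ratios of 7 of 9 comparisons left their interval, as given above. With a minimum of 100 UMIs, 0 members were 2-fold lower in lonidamine, since Il5ra was not tested, and 0.817% of all genes were. The cause of the other shifts was not tested.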
